A study of Mus musculus with 12 samples.

Results

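Neurons pass signals by fusing transmitter-filled vesicles with their own membrane and then retrieving that membrane. Fusion is driven by the SNARE proteins on the vesicle and on the target membrane, which zip together into a bundle, while synaptotagmins sense calcium and complexins hold the bundle ready. Active zone proteins and the small GTPase Rab3 place vesicles at the release site, NSF and its SNAP partners pull the spent bundles apart, and dynamin with its helpers takes the membrane back. In the caudate putamen, which forms the dorsal striatum, this machinery sits in the axon collaterals of the projection neurons, in interneurons and in the incoming cortical, thalamic and dopamine fibres. The messenger RNA of those incoming fibres is made mostly in cell bodies that lie outside the tissue.

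The synaptic vesicle release genes described here are 34 genes of this machinery, taken as a fixed list of symbols. A probe belonged to the list if the array's annotation gave it exactly 1 gene symbol and that symbol was on the list. This gave 70 of the 45281 probes on the array. A probe was tested if its detection p was under 0.05 on at least 6 of the 12 arrays, which left 51 member probes for 29 genes, among 20296 tested probes in all. Where a gene had several tested probes they are numbered by brightness, so that Vamp1 probe 1 is the brightest, and the brightest stands for the gene where genes are counted.

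The tissue came from male C57BL/6J mice aged 12 weeks. In the ethanol group, 6 samples, the mothers drank ethanol at 10% (v/v) by choice between 0.5 and 8.5 days after conception, so that the exposure ended long before the tissue was taken. The control group also had 6 samples, labelled as controls. The protocol text is the same on all samples, so what the control mothers drank is not given. Each chip, numbered 1 and 2, carried 3 samples of each group, and samples are named by group and replicate number. Whether the samples are separate mice, or from separate litters, is not stated in the labels, and p-values therefore measure only the spread between these samples.

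The arrays had raw median intensities of 136.1 to 153.2 and detected 19452 to 21949 probes each. The tissue label was checked with 9 genes of striatal projection neurons, of which the 7 with a probe on the array were all tested. Their mean log2 intensity was 12.14 to 12.57 in ethanol samples and 12.34 to 12.58 in control samples. Marker genes of thalamic neurons, 6 of 9 tested, had a mean log2 intensity of 8.87 in ethanol 3 and 8.88 in ethanol 4, and lay between 7.62 and 8.01 in the other 10 samples. These 2 samples stand apart in that respect, and the differences of Rph3a, Rims3, Syt11, Vamp1 and Sv2b are given below both with and without them.

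Of the 34 genes, 29 had at least 1 entry in RefSeq's promoter windows (assembly GRCm38.p6), with 38 windows in all. Those without an entry were Snap25, Syt4, Syt5, Syngr3 and Vamp2. The 250 bases before each start were searched on both strands for short letter runs known from neuronal and housekeeping promoters, since the choice of members used no sequence. The GC box letters GGGCGG, which Sp1-family factors bind, were in 21 of 38 member windows (55.3%), against 32.7% of all 32851 windows. Member windows also had the higher median G+C content, 59.2% against 52.4%, and its part in the GC box share was not tested. The letters TGACGT, part of the cyclic AMP response element, were in 5 member windows (13.2%), against 6.47% of all windows. Those 5 windows belong to Napa, Rab3a, Sh3gl2, Sncb and Syn1. The TATAAA letters were in 2 member windows (5.26%), both of Sv2b, against 12.4% of all windows. For the element of the neuronal repressor REST, the right part GGACAG was in 18.4% of member windows against 18.7% of all, and the left part TCAGCAC in 5.26% against 4.23%. A match describes letters in these windows and is neither a binding site nor a cause.

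Windows of Syn1 and Rims3 are shown as examples of genes with a small p in the expression data below, in opposite directions. Among lower probes, Rph3a (limma unadjusted p = 0.020) and Syt11 probe 2 (0.047) had a smaller p than Syn1 (0.052) and are not shown. Rph3a and Syt11 windows also held the GC box and the right part of the REST element, as Rims3 does. The pair shown therefore does not tie these letters to a direction. The windows of Syn1 and Rims3 carry the letters just counted, which are in capitals. Both are the 250 bases before the start in GRCm38.p6, from 5′ to 3′. Syn1 is on the minus strand at chrX:20920919-20921168, and Rims3 on the plus strand at chr4:120854549-120854798.
Syn1: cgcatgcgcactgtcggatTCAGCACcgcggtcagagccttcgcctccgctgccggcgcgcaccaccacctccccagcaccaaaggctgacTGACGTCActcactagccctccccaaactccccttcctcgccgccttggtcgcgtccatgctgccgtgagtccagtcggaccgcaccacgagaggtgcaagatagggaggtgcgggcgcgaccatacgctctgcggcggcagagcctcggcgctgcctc
Rims3: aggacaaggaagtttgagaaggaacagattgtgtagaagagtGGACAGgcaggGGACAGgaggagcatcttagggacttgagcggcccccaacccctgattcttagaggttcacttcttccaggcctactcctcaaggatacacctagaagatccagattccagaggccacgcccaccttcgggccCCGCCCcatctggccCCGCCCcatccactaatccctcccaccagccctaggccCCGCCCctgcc
In Syn1 the capitals mark the left part of the REST element and the cyclic AMP response letters, read on both strands with overlapping letters. In Rims3 they mark the right part of the REST element, present 2 times, and the GC box read on the opposite strand, present 3 times.

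No synaptic vesicle release gene differed between ethanol-exposed and control striatum by the threshold used. With limma over all tested probes, 0 of 51 member probes had a Benjamini-Hochberg adjusted p under 0.05, where 0.0% of all 20296 probes did, and the smallest member value was 0.845. At an unadjusted p under 0.05 there were 4 member probes (7.84%), where 5.79% of all probes reached it. Those higher in ethanol were Rims3 and Vamp1 probe 3, 2 probes against a background of 2.9%, and those lower were Rph3a and Syt11 probe 2, 2 probes against 2.89%. The 4 became 2 without control 4 or without control 6, Rims3 and Rph3a each time, and 1 without ethanol 3 and ethanol 4 together, Sv2b probe 2. Without ethanol 3 and control 4 there were 2, Rph3a and Sv2b probe 2. In 0 of 51 member probes were the groups free of overlap, where 0.266% of all probes had such groups.

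The differences were small, but their errors were not narrow for every probe, and the 95% limits reached -0.59 and 0.84 log2 units at the extremes. Ethanol minus control lay between -0.20 and 0.33 log2 units over the 51 probes, with a median of -0.019, beside a median of 0.00037 over all tested probes. In 31 member probes (60.8%) the ethanol mean was the lower one, and so in 49.8% of all probes. Counting 1 probe per gene, 19 of 29 genes were lower, and the same count was not made for all genes. The median standard error (SE) of a difference was 0.0994 for members and 0.113 for all probes. The 95% interval stayed within a 1.25-fold change in both directions for 29 member probes (56.9%), beside 46.1% of all probes. It stayed within 1.5-fold for 46 (90.2%), beside 91.9%, and within 2-fold for all 51, beside 99.5%. In bulk tissue, fewer cells or terminals of a type and less RNA per cell cannot be told apart in any of these values. Averaged over the 29 brightest probes, the log2 intensity was 11.04 to 11.20 in ethanol samples and 11.14 to 11.17 in control samples, or 11.12 ± 0.057 and 11.16 ± 0.016 (SD, n = 6 each). All control samples lay inside the range of the ethanol samples.

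**Figure D1:**
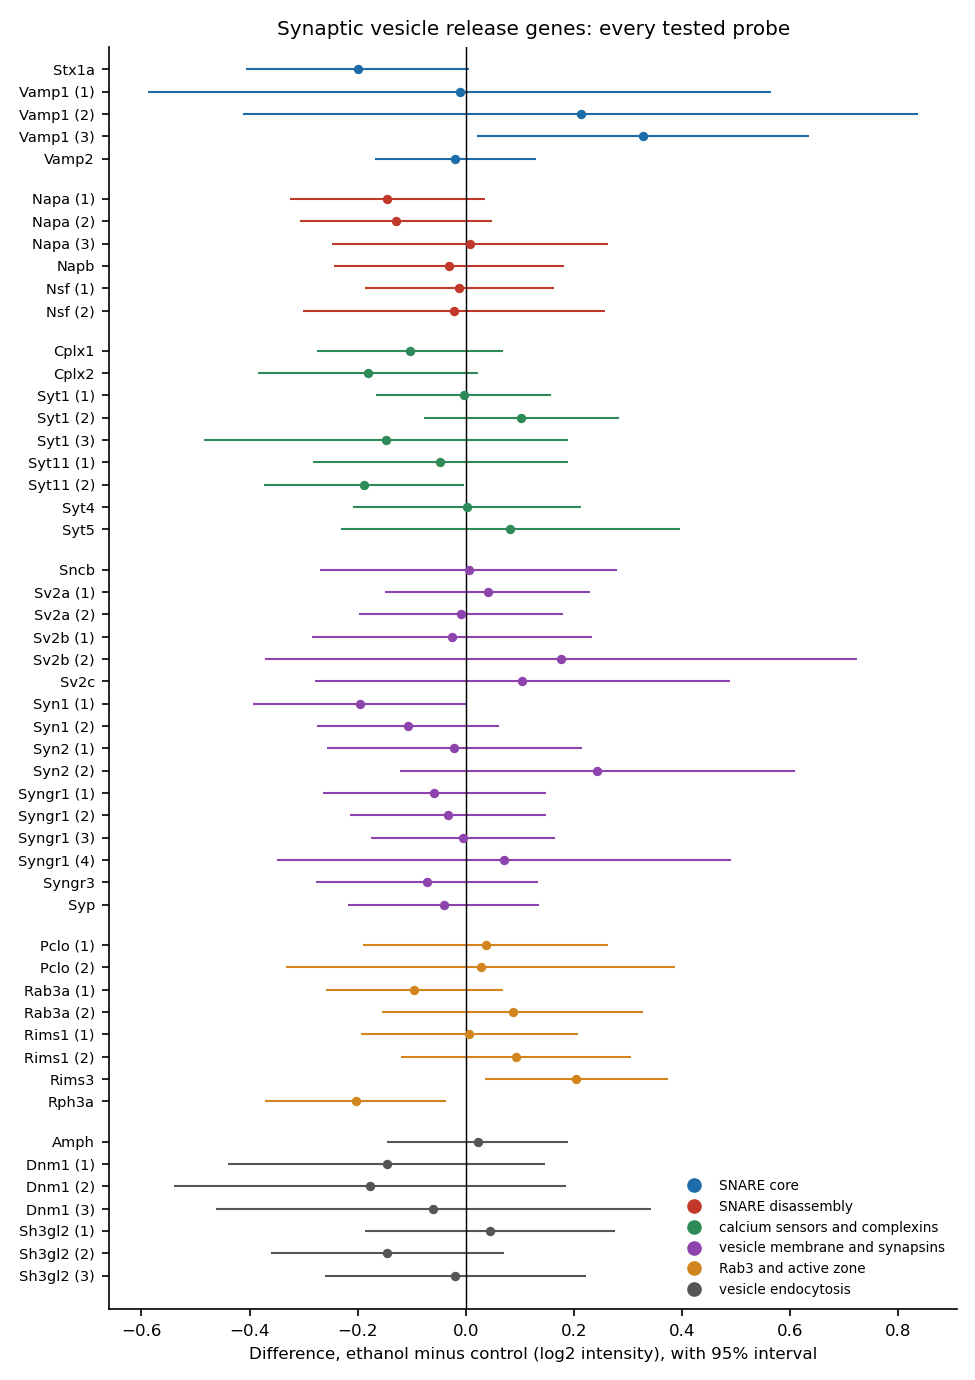
Difference in log2 intensity between ethanol-exposed and control samples (x axis, ethanol minus control) for each of the 51 tested member probes (y axis), coloured by role, where a number in brackets ranks the probes of a gene by brightness. Points are the limma estimates and bars their 95% intervals: 4 bars miss 0 (Rims3, Vamp1 probe 3, Rph3a and Syt11 probe 2), and no point passed the adjusted threshold.

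The fusion machinery itself begins with the SNARE core, of which 3 of 4 genes were tested. Snap25, the target-membrane SNARE that contributes 2 helices to the bundle, had 2 probes, both not detected on any array, so it has no value here. Stx1a, the syntaxin that pairs with it, had log2 intensities of 10.33, 10.63 and 10.83 (lowest, median, highest) in ethanol samples, against 10.67, 10.75 and 10.92 in control samples. In 4 of 6 ethanol samples Stx1a lay below the lowest control, and the groups overlapped in the rest. The difference was -0.20 (SE 0.096, limma adjusted p = 0.854), of which chip 1 gave -0.35 and chip 2 -0.046. Vamp2, the main vesicle SNARE of the forebrain, was among the members that varied least: 12.86, 12.89 and 13.00 in ethanol samples and 12.80, 12.97 and 12.99 in control samples. Its difference was -0.019 (SE 0.069), and the 95% interval ran from -0.17 to 0.13.

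Vamp1, the vesicle SNARE best known from brainstem, spinal cord and the motor nerve terminal, had 3 tested probes that did not move together. Probe 3 was dim, with raw intensities of 137.5 to 177.0, and was detected on 10 of 12 arrays, 6 ethanol and 4 control. It had 5.37, 5.81 and 6.03 in ethanol samples and 5.08, 5.47 and 5.82 in control samples. Its difference of 0.33 (SE 0.144, adjusted p = 0.845) was the highest of any member probe, with 0.070 on chip 1 and 0.59 on chip 2. That size depended on the background step: the difference was 0.097 without background correction and 0.19 with an offset of 50. Without ethanol 3 and ethanol 4 the difference of probe 3 was 0.26 (SE 0.163, limma unadjusted p = 0.139). Probe 1 ran from 6.81 through a median of 7.47 to 8.84 in ethanol samples and from 7.10 through 7.62 to 8.06 in control samples. Its difference was -0.011 (SE 0.270, adjusted p = 0.998). Probe 2 had 6.43, 7.20 and 8.49 in ethanol samples and 6.45, 7.03 and 7.78 in control samples, a difference of 0.21 (SE 0.292, adjusted p = 0.957). Ethanol 3 was the highest of all 12 samples on both probes 1 and 2. On probe 2 the control samples alone had an SD of 0.446.

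SNARE disassembly was represented by 3 genes, all tested, with 5 of 6 probes at a lower value in ethanol. Napa encodes alpha-SNAP, the adaptor that brings NSF to the spent bundle. Napa probe 1 had 9.77, 9.96 and 10.08 in ethanol samples and 9.82, 10.14 and 10.22 in control samples, a difference of -0.15 (SE 0.084, adjusted p = 0.859). In control samples, 4 of 6 values lay above the highest ethanol value, while control 1 was the lowest but one of all 12. Napa probe 2 had 8.14, 8.42 and 8.61 in ethanol samples and 8.49, 8.52 and 8.70 in control samples. Its difference was -0.13 (SE 0.083, adjusted p = 0.867), with 4 of 6 ethanol samples below the lowest control. Napa probe 3 showed no such order, with 8.10, 8.38 and 8.64 in ethanol samples and 8.04, 8.37 and 8.64 in control samples. The ATPase Nsf differed by -0.012 (SE 0.082) on probe 1 and -0.022 (SE 0.131) on probe 2. Napb, the brain-enriched beta-SNAP, differed by -0.031 (SE 0.099).

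Calcium sensors and complexins were all tested, 6 genes with 9 probes, of which 6 were at a lower value in ethanol. Syt1, the fast calcium sensor of most forebrain synapses, differed by -0.0041 (SE 0.076) on probe 1, and the other two probes pointed opposite ways, at 0.10 (SE 0.085) and -0.15 (SE 0.158). Syt11, a synaptotagmin that does not bind calcium, was lower on both probes. On probe 2 its values were 8.45, 8.59 and 8.80 in ethanol samples and 8.59, 8.82 and 8.97 in control samples, and 3 of 6 ethanol samples lay below the lowest control. That difference was -0.19 (SE 0.086, limma unadjusted p = 0.047 and adjusted p = 0.850), and equal on the chips, at -0.19 on each. Without ethanol 3 and ethanol 4 the difference of probe 2 was -0.12 (SE 0.093, limma unadjusted p = 0.214). Probe 1 of Syt11 had 9.60, 9.93 and 10.07 in ethanol samples and 9.68, 9.91 and 10.30 in control samples, and differed by only -0.047 (SE 0.110).

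Cplx2, a complexin that clamps and primes the SNARE bundle, was near the lower end of the members. It had 11.55, 11.64 and 11.94 in ethanol samples and 11.71, 11.89 and 12.06 in control samples, and 4 of 6 ethanol samples lay below the lowest control. The difference was -0.18 (SE 0.095, adjusted p = 0.854), and the chips gave -0.17 and -0.19. Cplx1, its close relative, pointed the same way by -0.10 (SE 0.081), with -0.13 on chip 1 and -0.078 on chip 2. Syt4, like Syt11 a form with an altered calcium-binding domain, differed by 0.0030 (SE 0.099), and Syt5 by 0.083 (SE 0.147).

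Vesicle membrane proteins and synapsins made up the largest role, 9 genes with 16 probes, 6 higher and 10 lower. Syn1, the synapsin that tethers vesicles to each other in the reserve pool, was lower on both probes. Syn1 probe 1 had 12.13, 12.38 and 12.59 in ethanol samples and 12.45, 12.52 and 12.86 in control samples. All but 1 ethanol sample lay below the lowest control, so 5 of 6 did, and ethanol 6 overlapped with the controls. The difference was -0.20 (SE 0.092, adjusted p = 0.850), with -0.20 on chip 1 and -0.19 on chip 2. Syn1 probe 2 had 11.69, 11.82 and 11.96 in ethanol samples and 11.79, 11.93 and 12.07 in control samples, and differed by -0.11 (SE 0.079, adjusted p = 0.880). Syn2, the second synapsin, differed by -0.021 (SE 0.110) on probe 1, which was detected on all 12 arrays. Syn2 probe 2, detected on 11 arrays, differed by 0.24 (SE 0.171, adjusted p = 0.875), and its values are given below by chip.

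The SV2 proteins are transporter-like vesicle glycoproteins, and SV2C is the form known for its presence in the basal ganglia. Sv2a differed by 0.040 (SE 0.089) and -0.0086 (SE 0.088) on its probes. Sv2c differed by 0.10 (SE 0.180), with 95% limits of -0.28 and 0.49. Sv2b probe 1 had 11.38, 11.84 and 12.27 in ethanol samples and 11.72, 11.85 and 12.01 in control samples, so the ethanol samples reached both lower and higher than the controls. Sv2b probe 2 had 5.53, 6.93 and 7.33 in ethanol samples and 6.16, 6.68 and 6.97 in control samples, a difference of 0.18 (SE 0.256, adjusted p = 0.961). Here 3 of 6 ethanol samples lay above the highest control and 1, ethanol 3, far below the lowest.

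Syp, or synaptophysin, the most widely used marker of synaptic vesicles, differed by -0.040 (SE 0.083), with a 95% interval from -0.22 to 0.14. The synaptogyrins are its 4-span relatives. Syngr3 differed by -0.071 (SE 0.096). Syngr1 probes 1 to 3 differed by -0.058 (SE 0.097), -0.033 (SE 0.085) and -0.0057 (SE 0.080). On Syngr1 probe 2 the ethanol samples ran from 8.82 through 9.04 to 9.19 and the control samples from 9.01 through 9.05 to 9.12, so that 3 ethanol samples lay below all controls and 3 above all. On Syngr1 probe 1 the values were 9.22, 9.37 and 9.52 in ethanol samples and 9.21, 9.44 and 9.71 in control samples, and on probe 3 they were 7.63, 7.83 and 7.98 in ethanol samples and 7.67, 7.85 and 7.93 in control samples. Probe 4, detected on 10 arrays, was the other way round in its spread, at 5.63, 5.83 and 6.08 in ethanol samples and 5.11, 5.79 and 6.55 in control samples. Sncb, beta-synuclein, a presynaptic relative of alpha-synuclein, differed by 0.0053 (SE 0.128).

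Rab3 and active zone genes held the member probes with the smallest p in each direction. Rph3a encodes rabphilin, which binds Rab3 in its active state on the vesicle. It had 9.03, 9.29 and 9.36 in ethanol samples and 9.32, 9.45 and 9.58 in control samples. In 5 of 6 control samples Rph3a exceeded every ethanol sample, and control 5 alone overlapped with them. The difference was -0.20 (SE 0.078, limma unadjusted p = 0.020 and adjusted p = 0.845), with a 95% interval from -0.37 to -0.037, and both chips gave a lower value, -0.18 and -0.23. Without ethanol 3 and ethanol 4 it was -0.17 (SE 0.080).

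Rims3 encodes a short RIM protein that keeps only the C-terminal C2 domain of the active zone scaffold. It had 11.08, 11.29 and 11.37 in ethanol samples and 10.92, 11.04 and 11.20 in control samples. In 4 of 6 ethanol samples Rims3 exceeded every control, and ethanol 2 and ethanol 6 lay within the control range. The difference was 0.20 (SE 0.080, limma unadjusted p = 0.022 and adjusted p = 0.845), with a 95% interval from 0.035 to 0.38, and both chips gave a higher value, 0.13 and 0.28. Without ethanol 3 and ethanol 4 it was 0.17 (SE 0.090). Its longer relative Rims1 differed by 0.0069 (SE 0.094) on probe 1 and 0.093 (SE 0.100) on probe 2.

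Among the other genes of this role, Rab3a, the GTPase that both rabphilin and RIM bind, had probes that disagreed in sign, at -0.095 (SE 0.076) and 0.087 (SE 0.113). Pclo, or piccolo, one of the largest active zone scaffolds, differed by 0.037 (SE 0.106) and 0.027 (SE 0.169). Rab3c, Unc13a and Bsn had no tested probe. Rab3c was detected on at most 5 arrays, Unc13a, the priming factor Munc13-1, on at most 4, and Bsn, or bassoon, on at most 1.

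**Figure D2:**
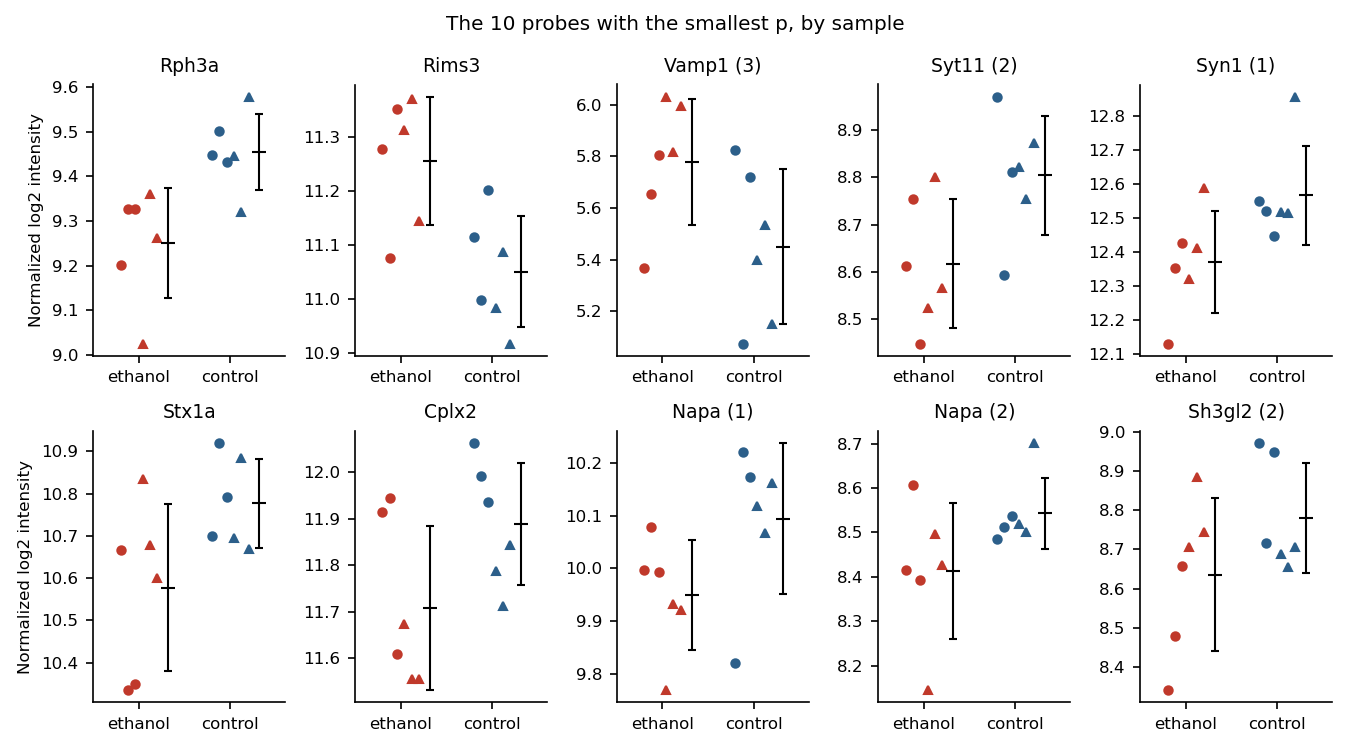
Normalized log2 intensity (y axis, a separate scale in each panel) of the 10 member probes with the smallest p, in order of p from top left, in ethanol-exposed (red, left) and control (blue, right) samples. Circles are chip 1 and triangles chip 2, and the bar beside each group is its mean and SD (n = 6 each). In every panel the groups overlap: for Rph3a, 5 control samples lie above all ethanol samples, and for Syn1 probe 1, 5 ethanol samples lie below all control samples.

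Vesicle endocytosis genes were tested for 3 of 4 members, with 5 of 7 probes lower. Synj1, the lipid phosphatase that strips the coat from retrieved vesicles, was not detected on any array. Dnm1, the neuronal dynamin that pinches vesicles off, was lower on all 3 probes with wide errors. Dnm1 probe 1 had 6.67, 7.07 and 7.40 in ethanol samples and 6.92, 7.15 and 7.61 in control samples, a difference of -0.15 (SE 0.137, adjusted p = 0.916). On probe 2 the values were 6.49, 6.71 and 7.15 in ethanol samples and 6.66, 6.82 and 7.69 in control samples, and on probe 3 they were 6.37, 6.56 and 6.82 in ethanol samples and 5.91, 6.60 and 7.22 in control samples. Control 6 was the highest of all 12 samples on each of these probes. Without control 6 the differences of probes 1, 2 and 3 were -0.056, -0.035 and 0.057, so that of probe 3 turned its sign. On chip 1 alone, probes 1 and 2 were at 0.073 and 0.028, and on chip 2 at -0.37 and -0.38.

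Sh3gl2 encodes endophilin A1, which bends the membrane neck and recruits synaptojanin. Sh3gl2 probe 1 had 12.42, 12.58 and 12.91 in ethanol samples and 12.33, 12.66 and 12.80 in control samples, a difference of 0.046 (SE 0.108, adjusted p = 0.977). Probe 2 had 8.34, 8.68 and 8.88 in ethanol samples and 8.65, 8.71 and 8.97 in control samples, a difference of -0.14 (SE 0.101, adjusted p = 0.872). Probe 3 had 8.01, 8.24 and 8.57 in ethanol samples and 7.95, 8.31 and 8.46 in control samples, and differed by -0.019 (SE 0.113). Ranges overlapped on each of these probes, and their signs did not agree. Amph, or amphiphysin, which links dynamin to the coat, differed by 0.022 (SE 0.078).

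Several probes of a gene could be compared within the list. Of the 15 member genes with more than 1 tested probe, 6 had all probes on the same side: Dnm1, Nsf, Syn1 and Syt11 lower, and Pclo and Rims1 higher. The other 9 had mixed signs: Vamp1, Napa, Sh3gl2, Rab3a, Syn2, Sv2a, Sv2b, Syngr1 and Syt1. The share of genes with all probes on the same side was not counted over the whole array. With so few probes per gene, signs can also agree by chance. Rph3a, Rims3, Stx1a and Cplx2 each rest on 1 tested probe.

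The members with the widest spread followed single samples more than the groups. Vamp1 probes 2 and 1 and Sv2b probe 2 had SDs over the 12 arrays of 0.58, 0.52 and 0.50, beside a median of 0.18 for member probes and 0.20 for all tested probes. Ethanol 3 had the highest value of Vamp1 probes 1 and 2, 8.84 and 8.49, and control 4 the next highest on both, 8.06 and 7.78. The same 2 samples had the lowest values of Sv2b probe 2, 5.53 and 6.16. They were also the samples with the highest mean level of 7 oligodendrocyte markers (7 of 8 tested), 13.24 in ethanol 3 and 13.26 in control 4, where the other samples lay between 11.92 and 12.74. The same 2 samples were highest in the mean level of the astrocyte markers (7 of 7 tested), 11.33 in ethanol 3 and 11.34 in control 4 and 10.77 to 11.13 in the others. They were also highest in that of the microglial markers (7 of 7 tested), 8.91 in ethanol 3 and 8.78 in control 4 and 8.37 to 8.66 in the others. The mean of the dopamine neuron markers (2 of 3 tested) was highest in them too, 7.56 in each, and 6.79 to 7.51 in the others. These 2 arrays also detected the most probes, 21526 in ethanol 3 and 21949 in control 4, and 19452 to 20831 in the others. Ethanol 4, the lowest of all in the oligodendrocyte markers at 11.92, had 7.77 and 7.33 on Vamp1 probes 1 and 2 and 6.81 on Sv2b probe 2. Striatal projection neuron markers were lowest in ethanol 3, 12.14, and next lowest in control 4, 12.34. The part of these cell types, or of the number of probes detected, in the Vamp1 and Sv2b values was not tested. Without ethanol 3 and ethanol 4, the difference of Vamp1 probe 1 was -0.37 (SE 0.184), that of probe 2 -0.11 (SE 0.244), and that of Sv2b probe 2 0.49 (SE 0.168, limma unadjusted p = 0.012 and adjusted p = 0.893). That fit keeps control 4, which was next to ethanol 3 at the end of the range on these probes. With ethanol 3 and control 4 left out instead, Vamp1 probe 1 was at -0.17 (SE 0.179), probe 2 at 0.11 (SE 0.204), and Sv2b probe 2 at 0.34 (SE 0.146, unadjusted p = 0.039 and adjusted p = 0.834).

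**Figure D3:**
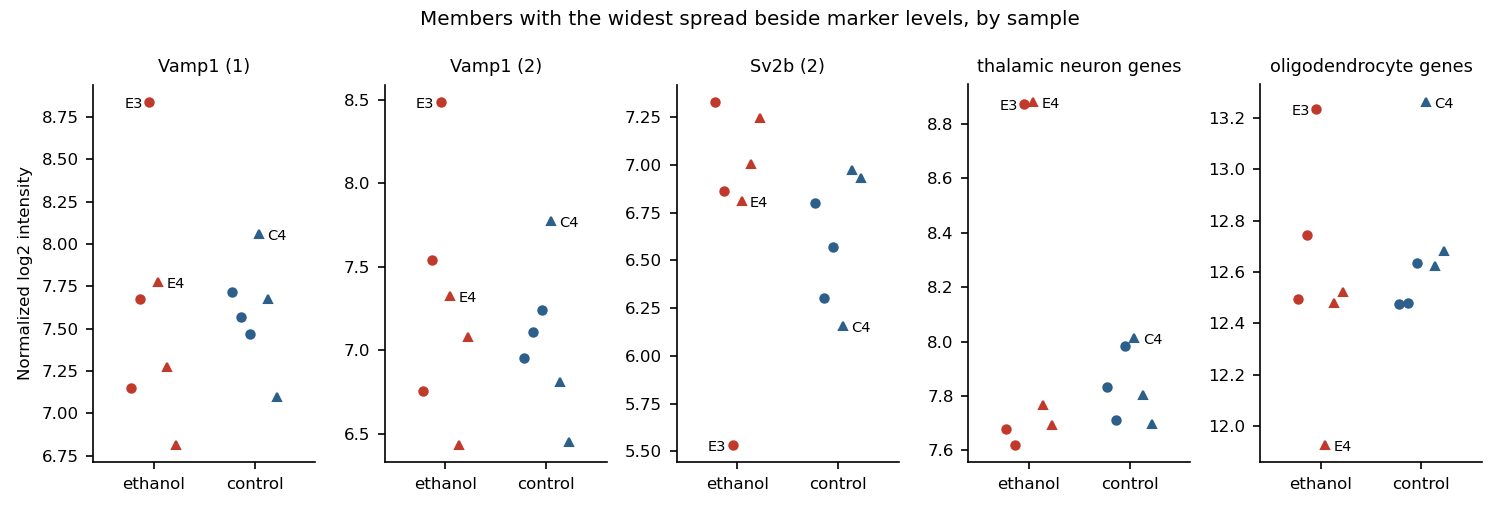
Normalized log2 intensity (y axis, a separate scale in each panel) of Vamp1 probes 1 and 2 and Sv2b probe 2, and the mean of the tested thalamic neuron and oligodendrocyte marker genes, in ethanol-exposed (red, left) and control (blue, right) samples. Circles are chip 1 and triangles chip 2, and E3, E4 and C4 mark ethanol 3, ethanol 4 and control 4. Ethanol 3 and control 4 are high in both Vamp1 panels and in the oligodendrocyte genes, and low for Sv2b probe 2.

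Ethanol 4 stood out in another way. Of the 29 brightest member probes, 8 (27.6%) had their highest value in ethanol 4, whereas 12.8% of all tested probes did. Its mean over the 29 probes was also the highest, 11.20, and that of ethanol 1 the lowest, 11.04. Ethanol 4 had a cortical marker level of 7.98 (6 of 9 genes tested), second to control 2 at 8.37, with the other samples between 7.14 and 7.53. Ethanol 4 also had the lowest value for 4 of the 29 probes (13.8%), where 12.7% of all tested probes had theirs. Control 2 and control 6 held the highest value for 5 of 29 probes each (17.2%). Over all tested probes these shares were 7.62% for control 2 and 9.67% for control 6. The part of thalamic and cortical markers in these counts was not tested.

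The same comparison was also split by chip, so that a probe's difference is the mean of its differences on chip 1 and chip 2. The sign was the same on both chips for 22 of 51 member probes (43.1%), and for 46.2% of all tested probes. Among these, 16 (31.4%) were lower in ethanol on both chips, where 23.1% of all probes were, and 6 (11.8%) higher on both, where 23.1% of all probes were. Rph3a, Syn1 probes 1 and 2, Cplx2, Cplx1, Stx1a and both Syt11 probes were lower on each chip, and Rims3 and Vamp1 probe 3 higher on each. Most of these were named for a small p on the same arrays, so their agreement between chips is not separate evidence. A fit with chip, group and their product tested whether the difference itself changed between chips. It gave 0 member probes at an adjusted p under 0.05, as for 0.0% of all probes, the smallest member value being 0.365. Another 4 member probes (7.84%) reached an unadjusted p under 0.05, where 9.98% of all probes reached it.

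Those 4 were Syn2 probe 2, Sh3gl2 probes 2 and 3, and Pclo probe 2, and each had a lower value in ethanol on chip 1 and a higher one on chip 2. Syn2 probe 2, detected on 11 arrays, had 5.70, 5.22 and 5.65 in ethanol samples against 5.63, 5.92 and 5.72 in control samples on chip 1. On chip 2 it had 6.41, 5.81 and 6.17 in ethanol samples against 5.31, 5.46 and 5.46 in control samples, with every ethanol sample above every control. With 3 samples per group this can arise by chance, and how many of all probes separate so on chip 2 was not counted. The probe was also picked for the smallest product p among members, and was dim, at raw intensities of 146.8 to 195.9. The differences were -0.23 and 0.72, and they differed by 0.95 (SE 0.237, limma adjusted p = 0.365). Sh3gl2 probe 2 gave -0.38 on chip 1 and 0.095 on chip 2, and probe 3 gave -0.27 and 0.23. Pclo probe 2 gave -0.30 and 0.35.

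**Figure D4:**
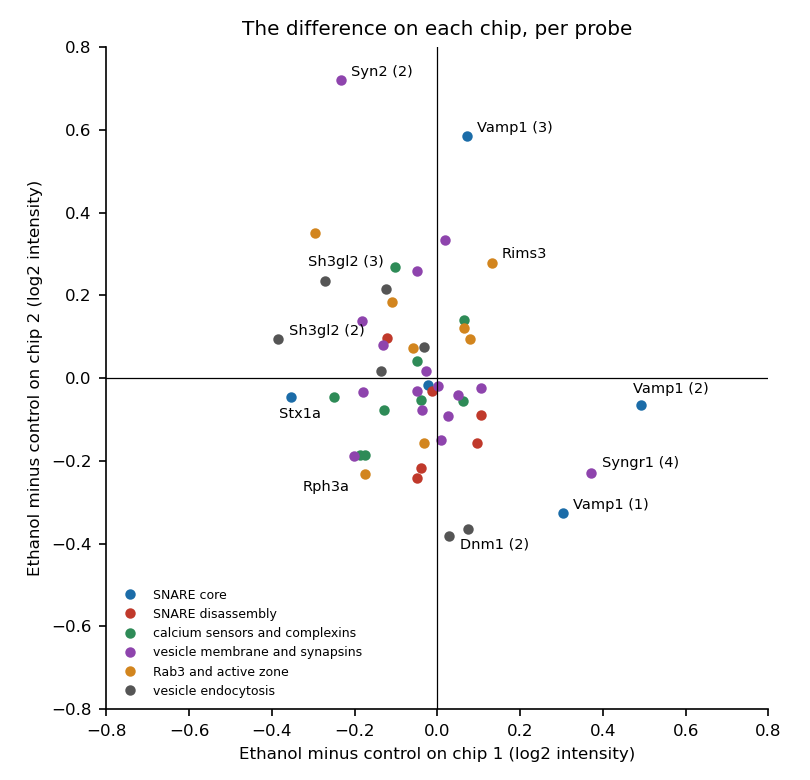
Difference in log2 intensity between ethanol-exposed and control samples on chip 1 (x axis) and chip 2 (y axis), 3 samples per group on each, for the 51 tested member probes coloured by role. Points in the lower left quadrant, 16 probes, had a lower value in ethanol on both chips, and those in the upper right, 6 probes, a higher one; Syn2 probe 2 lies farthest from agreement at -0.23 and 0.72.

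The wider vesicle pathway outside the 34 genes was read from 6 lists with 98 genes, of which 92 were on the array and 76 were tested. Of the 76, 37 were higher and 39 lower, 0 passed limma's adjusted threshold of 0.05, and their median difference was -0.0013. At an unadjusted p under 0.05 there were 2 (2.63%), where 5.79% of all tested probes reached it: Syt16 at 0.21 (SE 0.077) and Dnajc5 at -0.16 (SE 0.071). Dnajc5 encodes the cysteine string protein, the vesicle chaperone that keeps SNAP-25 folded, and Syt16 is a synaptotagmin that does not bind calcium.

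Other SNAREs and their regulators were higher for 4 of 10 tested genes and lower for 6. Vamp4 (0.12) and Vamp7 (0.18), both SNAREs of endosomal traffic, had the smallest p among the higher ones, and beside Dnajc5 the tomosyn gene Stxbp5l (-0.12) among the lower ones. Other calcium sensors were split 5 and 5. Beside Syt16, Cadps2, which promotes release from dense-core vesicles, was at 0.36 (SE 0.231), while Doc2b was at -0.089 and Syt13 at -0.16. Other vesicle membrane proteins were higher for 5 of 9, with the vesicular amino acid transporter gene Slc6a17 at 0.13, Sncg, the gene of gamma-synuclein, at 0.20, Scamp1 at -0.069 and Sypl at -0.083.

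Other active zone and Rab proteins were split 7 and 7. The Rab3a relative Rab3b was at 0.23 (SE 0.155) and Rab3gap1, part of the enzyme that switches Rab3 off, at 0.070, while the early endosome GTPase Rab5a was at -0.13 (SE 0.071) and the Munc18 partner Apba1 at -0.24. Other endocytosis proteins were higher for 10 of 18, with the scaffold Itsn1 at 0.15 and the endophilin gene Sh3gl3 at 0.077, against the adaptor subunit Ap2b1 at -0.13 and the clathrin heavy chain Cltc at -0.12. The proton pump and transmitter loaders were higher for 6 of 15 and lower for 9. The pump subunit Atp6v0d1 was at 0.095 and Slc17a8, the vesicular glutamate transporter of cholinergic interneurons, at 0.070, while the pump subunits Atp6v0a1 and Atp6v1b2 were at -0.16 (SE 0.092) and -0.097.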

How the data were processed

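Total RNA of 12 caudate putamen samples was measured on Illumina bead arrays, 1 array per sample. The raw table deposited by the authors holds a linear intensity per probe and array, not normalized between arrays, with a detection p-value beside it, per the file headers. A second deposited table holds the authors' normalized intensities and served as an alternative. GenomeStudio 1.9.0 is named in the submitters' processing notes, and how it treated background is not given in the sources used here.

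From the raw table, neqc (limma 3.58.1, R 4.3.3) estimated the background through the detection p-values, added an offset of 16, applied quantile normalization and returned log2 values. Tables were summarised with Python 3.11.15 and pandas 2.3.3, and plots drawn with matplotlib 3.10.9. All 20296 probes detected (p under 0.05) on at least 6 arrays were fitted with lmFit and eBayes over all 12 arrays, without covariates, two-sided, with Benjamini-Hochberg adjustment over all of them at a threshold of 0.05. A second fit had group, chip and their product. The script was tested on simulated data. Arrays give no counts, so their number limits the precision. No array was a copy of another, since the closest pair was 0.272 log2 units apart (root mean square).

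Probe names come from GEO's platform annotation. Values by sample are given for the 10 member probes with the smallest p, those with groups that do not overlap, the 5 with the largest SD, and every tested probe of their genes. Syn2 probe 2 was added after its values were seen. In each pathway list the 2 genes with the smallest p in each direction are named. The members, lists and tests were chosen with earlier results of these data known. Alternatives were other background corrections, scalings and filters, chip or replicate number as a block, each chip alone, a robust variance model, the mean of a gene's probes, and samples left out.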

Additional observations from a re-analysis of the deposited data

Results flagged for a closer look

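Within each group of 6, the highest or lowest sample was compared with the rest by Dixon's criterion at the 95% level. It singled out 8 of 102 groups of values, from 51 probes, where chance gives about 1 in 20 for independent values. The groups share the same 12 arrays, and the screen was not run over all tested probes. The count therefore cannot be read as an excess. Nsf probe 2 was 6.75 in ethanol 3, below 7.31 to 7.55 in the other ethanol samples. Sv2b probe 2 was 5.53 in the same sample, below 6.81 to 7.33. Ethanol 6 was low for Rab3a probe 1, at 12.75 below 12.97 to 13.08, and for Rims1 probe 2, at 6.68 below 7.01 to 7.21. Among control samples, control 6 was high for Napa probe 2, at 8.70 above 8.49 to 8.54, and for Syn1 probe 1, at 12.86 above 12.45 to 12.55. Control 2 was high for Rab3a probe 2, at 9.87 above 9.30 to 9.50. Control 3 was low for Sv2c, at 5.66 below 6.29 to 6.64.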

How the results depend on the processing

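Under each of 28 alternatives, limma called 0 member probes at the adjusted threshold of 0.05, the lowest adjusted p being 0.290 on chip 2 alone, and the product of chip and group gave 0 under 5 alternatives. The median member difference stayed below 0, between -0.051 without ethanol 3 and ethanol 4 and -0.000054 without ethanol 1. Member probes at an unadjusted p under 0.05 were fewest without ethanol 3 and ethanol 4, 1 of 51 (1.96%, and 5.53% of all probes). They were most with no filter, 7 of 70 (10.0%, and 5.34% of all probes), against 4 in the main fit. With 1 array left out they numbered 2 to 6. The highest share was 4 of 29 for the mean of a gene's probes (13.8%, and 5.87% of all genes). It was 11.8% without background correction and in the authors' normalized intensities (5.91% of all probes in each). The share was also 11.8% with the robust variance model (5.74% of all) and without ethanol 2 (7.54% of all). Over the alternatives, Rph3a reached an unadjusted p under 0.05 under 25 of 28 and Rims3 under 23. Next, by any probe of the gene, were Syn1 under 14, Syt11 under 12 and Vamp1 under 10. Rph3a and Rims3 were already the members with the smallest p, and the alternatives reuse the same arrays. These counts are therefore not separate evidence, and no such count was made for all probes. The fit without ethanol 3 and control 4 was chosen after seeing the data. Median scaling shifted the median of all probes to -0.020 and split the probes at an unadjusted p under 0.05 into 336 higher and 678 lower, against 588 and 587. With the replicate block there were 0 member probes past the threshold, 4 at an unadjusted p under 0.05, and a median of -0.019. Whether the replicate numbers pair the samples is not stated in the labels. Same-numbered samples' deviations correlated between -0.138 and 0.277 over 6 pairs, and in 2 pairs the best match carried the same number. With no known pair to compare, these values cannot settle it.

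Leaving aside the fits without 1 array, signs turned for 14 of 26 named probes, and the cause was not tested. On chip 1 alone they turned for Vamp1 probe 1 (0.30), Syngr1 probe 2 (0.026), Dnm1 probes 1 (0.073) and 2 (0.028), and Sh3gl2 probe 1 (-0.12). On chip 2 alone they turned for Vamp1 probe 2 (-0.066), Napa probe 3 (-0.089), Syngr1 probes 4 (-0.23) and 3 (0.016), Sv2b probe 1 (0.080), Dnm1 probe 3 (0.016), and Sh3gl2 probes 2 (0.095) and 3 (0.23). Without ethanol 3 and ethanol 4 they turned for Vamp1 probe 2 (-0.11), Syt11 probe 1 (0.011), Sv2b probe 1 (0.083) and Sh3gl2 probe 1 (-0.075). Without ethanol 3 and control 4 they turned for Syngr1 probe 3 (0.020), Sv2b probe 1 (0.051) and Sh3gl2 probe 1 (-0.055). Vamp1 probe 1 was 0.020 without background correction, 0.0036 with an offset of 50 and 0.020 in the authors' normalized intensities, and Napa probe 3 was -0.019 under median scaling. With 1 array left out, signs turned for 11 of 26 named probes. Their ranges were -0.26 to 0.14 (Vamp1 probe 1), -0.031 to 0.38 (Vamp1 probe 2), -0.055 to 0.066 (Napa probe 3), -0.10 to 0.024 (Syt11 probe 1), -0.065 to 0.0076 (Syngr1 probe 2), -0.038 to 0.032 (Syngr1 probe 3), -0.061 to 0.23 (Syngr1 probe 4), -0.12 to 0.063 (Sv2b probe 1), -0.20 to 0.057 (Dnm1 probe 3), -0.010 to 0.091 (Sh3gl2 probe 1) and -0.086 to 0.027 (Sh3gl2 probe 3).

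Snap25 and Synj1, detected on 0 arrays, and Rab3c, Unc13a and Bsn, whose probes were detected on fewer than 6, have no tested value. With no filter, the Unc13a probe detected on 4 arrays had a difference of -0.28 (SE 0.111, limma unadjusted p = 0.024 and adjusted p = 0.925).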
